A study of Mus musculus with 17 samples.

Results

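The 8 genes described here, Dag1, Sgca, Sgcb, Sgcd, Sspn, Dtna, Nos1 and Cav3, encode partners of dystrophin in the complex at the muscle fibre membrane. They were chosen by name, Dmd and Utrn set aside, and are read on every probe set annotated to exactly 1 of these symbols, which gave 19 probe sets of 22626 tested, or 8 of 12393 genes. None of the 8 encodes a syntrophin. The syntrophins that could be read are counted among the other members of the complex further on. Gene expression was measured on 17 Affymetrix arrays, 1 per sample, from the tibialis anterior, a fast muscle at the front of the lower leg. There were 5 arrays from fiona mice, which carry a utrophin transgene on the mdx background, 6 from mdx mice, whose dystrophin gene is mutated, and 6 from normal wild-type mice without either. All mice were 56 days old and male by their labels, the muscles of both legs were pooled, and each array is called a biological replicate. Fiona and mdx mice thus share the dystrophin mutation. The promoter of the transgene and the genetic background of the normal mice are not given in the sources used here, and fiona is a single transgenic line. The design asks what differs in mdx muscle and how far the utrophin transgene alters it.

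Dystrophin lies under the membrane and ties the actin cytoskeleton to dystroglycan, which binds laminin outside the fibre. The sarcoglycans and sarcospan form a membrane subcomplex beside dystroglycan, dystrobrevin and the syntrophins bind dystrophin inside the fibre, and neuronal nitric oxide synthase is held at the membrane through them. Caveolin 3, the muscle caveolin, coats membrane pits and can bind dystroglycan. In dystrophin-deficient muscle the dystroglycan and sarcoglycan proteins of this complex are known to be depleted at the membrane. The arrays measure transcripts only, and in whole muscle fewer cells of a type and less RNA per cell cannot be told apart.

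Of the 8 genes, 2 differed on their brightest probe set in at least 1 comparison. Of all genes read in this way, 4.50% were called in mdx against normal, 40.9% in fiona against mdx and 0.00% in fiona against normal muscle. Cav3 was 2.16-fold higher in mdx than in normal muscle and 1.94-fold lower in fiona than in mdx muscle. Nos1 was 3.83-fold higher in fiona than in mdx muscle, and its lower level in mdx than in normal muscle missed the threshold. The dystroglycan, sarcoglycan, sarcospan and dystrobrevin transcripts gave 1 call among their 16 probe sets over all 3 comparisons, a lower level of the dimmer Sgcb probe set in fiona than in mdx muscle. Of all probe sets, 4.04% were called in mdx against normal and 42.1% in fiona against mdx muscle. Between fiona and normal muscle 0 of the 19 probe sets were called, against 0.00442% of all probe sets.

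Promoters are shown for Cav3 and Nos1 because these genes carry the differences. RefSeq promoter entries (build GRCm38.p6) were found for 7 of the 8 genes. Each sequence is the 250 bases before the annotated start, 5′ to 3′ on the plus strand, chr6:112459255-112459504 for Cav3 and chr5:117866589-117866838 for Nos1. Capitals mark CANNTG, the E-box bound by basic helix-loop-helix factors such as MyoD, which reads the same on both strands.
Cav3: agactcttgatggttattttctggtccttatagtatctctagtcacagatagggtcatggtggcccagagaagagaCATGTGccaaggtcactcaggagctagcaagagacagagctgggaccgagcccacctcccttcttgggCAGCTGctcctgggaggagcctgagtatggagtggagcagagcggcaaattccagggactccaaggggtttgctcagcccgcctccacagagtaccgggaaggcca
Nos1: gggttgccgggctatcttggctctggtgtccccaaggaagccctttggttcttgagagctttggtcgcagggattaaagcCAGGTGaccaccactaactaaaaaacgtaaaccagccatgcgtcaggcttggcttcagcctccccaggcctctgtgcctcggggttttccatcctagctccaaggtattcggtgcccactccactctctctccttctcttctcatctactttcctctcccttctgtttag
The Cav3 window holds 2 matches, which begin 174 and 106 bases before the start, and the nearer of them is CAGCTG. The Nos1 window holds 1 match, 170 bases before the start. At least 1 CANNTG stands in 66.2% of 32851 promoters of the same length, and CAGCTG in 13.0%. CANNTG also stands in at least 1 window of Dag1, Sgca, Sgcd and Sspn, and not in that of Sgcb, so it does not set Cav3 and Nos1 apart. The matches describe the letters of these windows, and binding was not measured. Whether transcripts in this muscle begin at these annotated starts was not measured either.

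Levels are the deposited log2 values per probe set, and each difference is a log2 value of the group named first minus that of the other. Probe sets bind with different strength, so no level is set against that of another probe set. Differences were tested with limma over all 22626 probe sets, and a probe set was called at an adjusted p under 0.05. Precision is limited by the number of arrays. Unspiked bacterial control probe sets, which have no target in muscle, had a median of 2.75 to 2.99 on fiona arrays, 2.65 to 2.75 on mdx arrays and 2.64 to 2.87 on normal arrays. Of the 19 probe sets, 17 lay above this control level on every array. The exceptions were the Sgcd probe set and the dimmer Nos1 probe set.

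Several features of the arrays bear on the values. Dmd, the dystrophin gene, separated normal from other muscle on probe set 1417307_at, with 3.39 ± 0.14 in fiona (SD, n = 5), 3.35 ± 0.10 in mdx (n = 6) and 6.64 ± 0.20 in normal muscle (n = 6). Utrn, the utrophin gene, lay above the control level on 4 of 5 fiona arrays and 0 of 6 mdx arrays on each of its dimmer probe sets, 1427569_a_at and 1426892_at. The exception was fiona array 5 on the first and fiona array 2 on the second. The brightest Utrn probe set, 1452222_at, did not separate the groups, with 6.57 ± 0.82 in fiona, 6.98 ± 0.39 in mdx and 6.81 ± 0.26 in normal muscle. Its fiona minus mdx difference of -0.41 was not called (adjusted p = 0.303 in limma). Residuals from the group means split the arrays into 2 sets, which were defined from the data since the labels name no batch: 2 fiona, 3 mdx and 3 normal arrays in set 1, and 3 fiona, 3 mdx and 3 normal arrays in set 2. On mdx array 1 the 3′ Gapdh control probe set exceeded the 5′ one by 2.54, against -0.43 to 0.06 on the other arrays, and that array was the lowest mdx array on 13 of the 19 probe sets. Xist was high and Eif2s3y low on 7 arrays, although all mice were male by their labels: 4 fiona, 2 mdx and 1 normal. On mdx array 6 only 1 of these 2 conditions held. Marker transcripts of mature fibres were abundant in every group, with a summed log2 level of 17.6 to 17.8 in fiona, 17.4 to 17.6 in mdx and 17.5 to 17.8 in normal muscle. Of these 8 genes 0 were called between mdx and normal muscle and 1, Myh1, was called higher in fiona than in mdx muscle.

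In mdx against normal muscle 1 of the 19 probe sets was called higher and 0 lower, against 4.04% of all probe sets called in either direction, 2.73% higher and 1.30% lower. In fiona against mdx muscle 1 was called higher and 2 lower, against 42.1% of all probe sets called, 36.0% higher and 6.08% lower. In fiona against normal muscle 0 of the 19 and 0.00442% of all probe sets were called, which is 1 probe set, of Dmd. Without fiona array 2, 2147 of all probe sets and 0 of the 19 were called in that comparison. By brightest probe set, the calls were 1 of 8 against 4.50% of all genes for mdx against normal muscle, 2 of 8 against 40.9% for fiona against mdx muscle, and 0 of 8 against 0.00% for fiona against normal muscle. Of all fiona against mdx calls 85.5% were higher, and 49.6% of the higher calls lay at or under the control level on all arrays of both groups. With arrays centred on their medians 10.9% of probe sets were called in that comparison, 49.6% of them higher, and with quantile normalization 72.2% of calls were higher. The median difference over the 19 probe sets was 0.02 for mdx minus normal, 0.02 for fiona minus mdx and 0.06 for fiona minus normal muscle, against -0.04, 0.08 and 0.04 over all probe sets. In array set 1 alone 5 of the 19 were called in mdx against normal muscle, against 26.7% of all probe sets, and 4 in fiona against mdx muscle, against 37.8%. In array set 2 alone the calls were 0 of 19 against 1.68% and 0 of 19 against 0.539%. The comparisons share arrays, so their values are given side by side and are not independent.

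**Figure D1:**
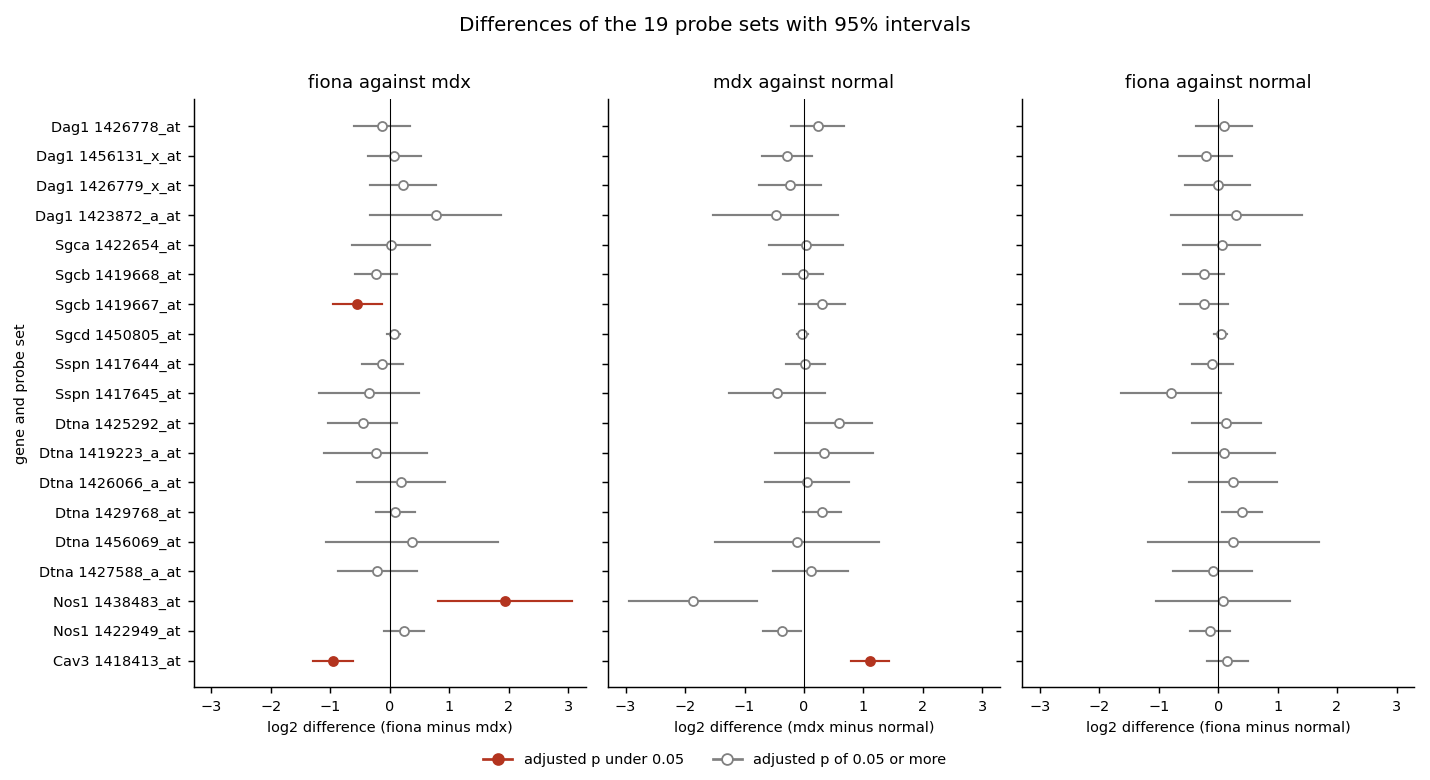
Differences of the 19 probe sets in the 3 comparisons, as log2 value of the group named first minus that of the other, with 95% intervals from limma. Only Cav3, Nos1 (1438483_at) and Sgcb (1419667_at) were called in any comparison, and the fiona minus normal intervals of Cav3, from -0.19 to 0.49, and of Nos1, from -1.05 to 1.21, include 0.

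Dag1 encodes dystroglycan, which is cut into the laminin-binding alpha subunit and the membrane-spanning beta subunit. None of its 4 probe sets was called in any comparison. On the brightest, 1426778_at, Dag1 averaged 9.79 ± 0.28 in fiona (SD, n = 5), 9.92 ± 0.38 in mdx (n = 6) and 9.69 ± 0.43 in normal muscle (n = 6), and the groups overlapped. The difference was 0.23 for mdx minus normal muscle (95% interval -0.21 to 0.67) and -0.13 for fiona minus mdx muscle (-0.60 to 0.33). The probe sets 1456131_x_at, 1426779_x_at and 1423872_a_at gave -0.28, -0.24 and -0.48 for mdx minus normal muscle, and -0.07, 0.05 and -0.08 without mdx array 1. For fiona minus mdx muscle they gave 0.07, 0.22 and 0.78, and -0.13, -0.06 and 0.39 without mdx array 1. The 0.78 on 1423872_a_at (95% interval -0.33 to 1.88, adjusted p = 0.246) was the largest difference of the 19 that was not called in that comparison. An x in the name marks a probe set that shares probe sequence with other genes.

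Sgca, the alpha-sarcoglycan gene, was nearly level across groups, with 9.69 ± 0.51 in fiona (SD, n = 5), 9.67 ± 0.55 in mdx (n = 6) and 9.63 ± 0.50 in normal muscle (n = 6). Its spread followed the array sets and not the groups. Values ran from 8.97 to 9.56 on set 1 arrays and from 9.84 to 10.31 on set 2 arrays, so that the sets did not overlap. The brighter Sspn probe set, 1417644_at, showed the same separation, from 9.04 to 9.66 on set 1 and from 9.68 to 9.95 on set 2. These were 2 of the 19 probe sets, against 4.38% of all probe sets with array sets that do not overlap. The sets were drawn from the same values, so this is a description.

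Sgcb encodes beta-sarcoglycan, the core of the sarcoglycan subcomplex, and was read on a brighter and a dimmer probe set. On the dimmer, 1419667_at, the fiona arrays read 8.05, 8.05, 7.29, 8.03 and 7.31. The mdx arrays ran from 7.92 over a median of 8.20 to 8.77, and the normal arrays from 7.74 over a median of 8.01 to 8.21. Fiona arrays 3 and 5 lay below every other array, while fiona arrays 1, 2 and 4 lay within the range of the mdx arrays.

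The fiona minus mdx difference on that probe set was -0.54 (95% interval -0.95 to -0.14, adjusted p = 0.0330 in limma). The two-sided exact permutation p was 0.0671. The adjusted p was 0.0512 with median-centred arrays, 0.132 with quantile normalization and 0.0583 with the replicate block, so the call was lost in each. It was also lost with the Xist pattern as a covariate (0.0598), with only the fiona and mdx arrays in the fit (0.0808), without fiona array 3 (0.0931), fiona array 5 (0.0946), mdx array 3 (0.0544), mdx array 4 (0.0712) or mdx array 5 (0.0734), and in set 2 alone (0.245). The brighter probe set, 1419668_at, gave -0.23 (-0.58 to 0.12, adjusted p = 0.273) and was not called. For mdx minus normal muscle the probe sets gave 0.30 on the dimmer and -0.01 on the brighter, neither called.

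Sgcd, the delta-sarcoglycan gene, could not be followed. Its probe set read between 2.74 and 3.03 on all 17 arrays, at most 0.33 above the control level of the same array. The differences, -0.03 for mdx minus normal and 0.06 for fiona minus mdx muscle, were not detectable against background.

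**Figure D2:**
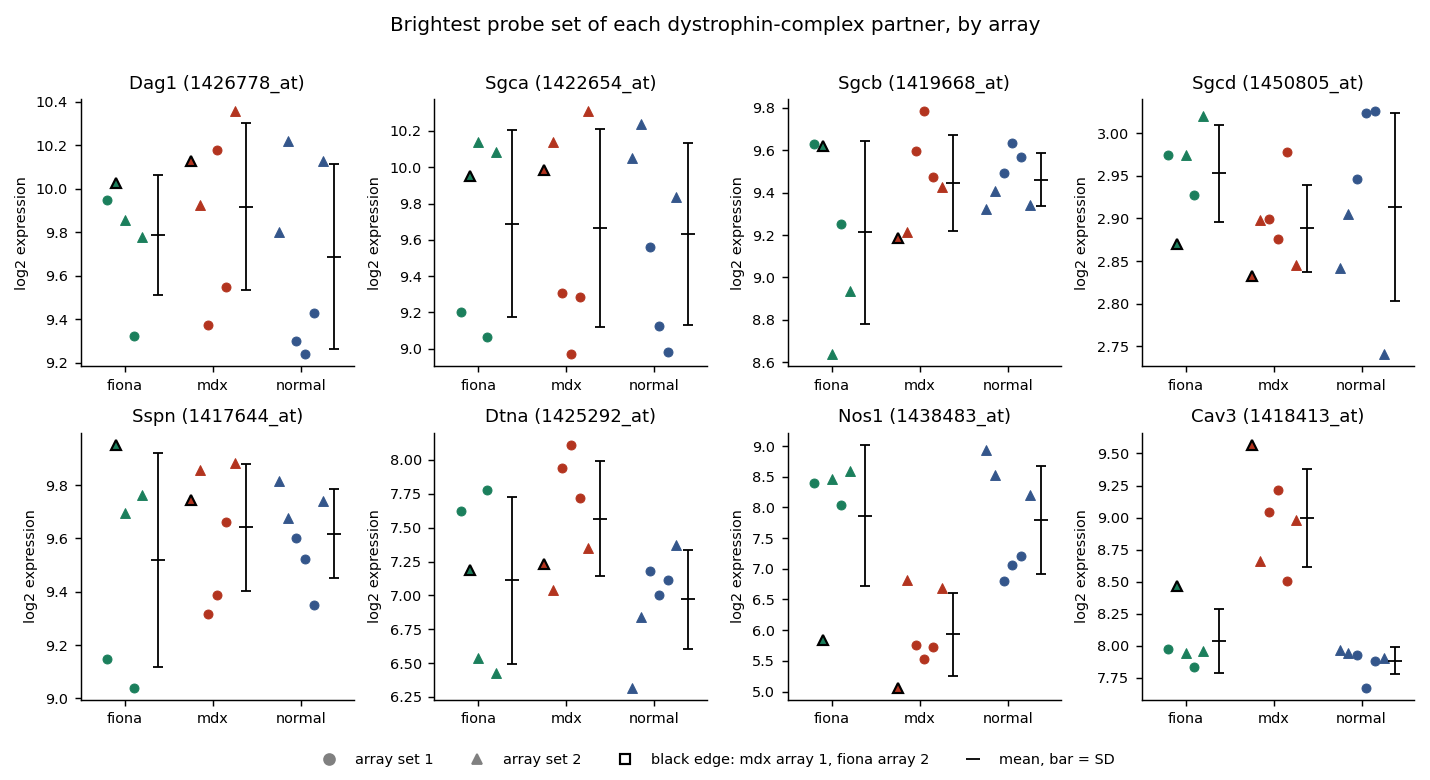
Deposited log2 values of the brightest probe set of each of the 8 genes on every array, with fiona left of mdx and normal, circles for set 1 and triangles for set 2 arrays, and the group mean with a bar of 1 SD beside the points. For Cav3 the mdx arrays lie between 8.50 and 9.57, above the normal arrays at 7.67 to 7.97, and for Sgca the symbols separate by array set, not by group.

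Sspn encodes sarcospan, a membrane protein with several spans that stabilises the sarcoglycans. On its brighter probe set it averaged 9.52 ± 0.40 in fiona (SD, n = 5), 9.64 ± 0.24 in mdx (n = 6) and 9.62 ± 0.17 in normal muscle (n = 6). The dimmer probe set, 1417645_at, read 5.58, 5.09, 5.64, 5.56 and 6.19 on the fiona arrays. The mdx arrays ran from 3.93 over a median of 6.08 to 6.88, and the normal arrays from 6.27 over a median of 6.39 to 6.61. Every fiona array thus lay below every normal array, the lowest mdx value being that of mdx array 1.

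The fiona minus normal difference on that Sspn probe set was -0.80 (95% interval -1.64 to 0.05), with an adjusted p of 0.232 in limma and a two-sided exact permutation p of 0.00216, the smallest for 5 arrays against 6. It was the only probe set of the 19 with fiona and normal arrays that did not overlap, against 1.04% of all probe sets. The fiona minus mdx difference was -0.34 (adjusted p = 0.516), and -0.75 without mdx array 1 (adjusted p = 0.0197).

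Dtna encodes alpha-dystrobrevin, a cytoplasmic relative of dystrophin with many splice forms, and had 6 probe sets, none called in any comparison. The brightest, 1425292_at, averaged 7.11 ± 0.61 in fiona (SD, n = 5), 7.57 ± 0.42 in mdx (n = 6) and 6.97 ± 0.37 in normal muscle (n = 6). Its mdx minus normal difference of 0.59 (95% interval 0.04 to 1.15) had an adjusted p of 0.261. On set 1 arrays alone it was 0.83 (adjusted p = 0.0170), and on set 2 arrays 0.36. A similar split was seen on 1426066_a_at, at 0.55 in set 1 (adjusted p = 0.0112) and -0.45 in set 2, which holds mdx array 1, the lowest of all arrays there. Without that array and with array set as a block, the difference was 0.39 (adjusted p = 0.00488). The groups of the other Dtna probe sets, 1419223_a_at, 1429768_at, 1456069_at and 1427588_a_at, gave 0.33, 0.31, -0.12 and 0.11 for mdx minus normal muscle, and 0.58, 0.35, 0.24 and 0.37 without mdx array 1, none called. In array set 1 the mdx and normal arrays did not overlap on any of the 6 Dtna probe sets, with differences of 0.31 to 0.83. Such a gap in set 1, with 3 arrays in each group, was seen on 10 of the 19 probe sets, against 63.9% of all probe sets. On 1429768_at the fiona minus normal difference was 0.40 (0.07 to 0.73, adjusted p = 0.198, two-sided exact permutation p = 0.0130).

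**Figure D3:**
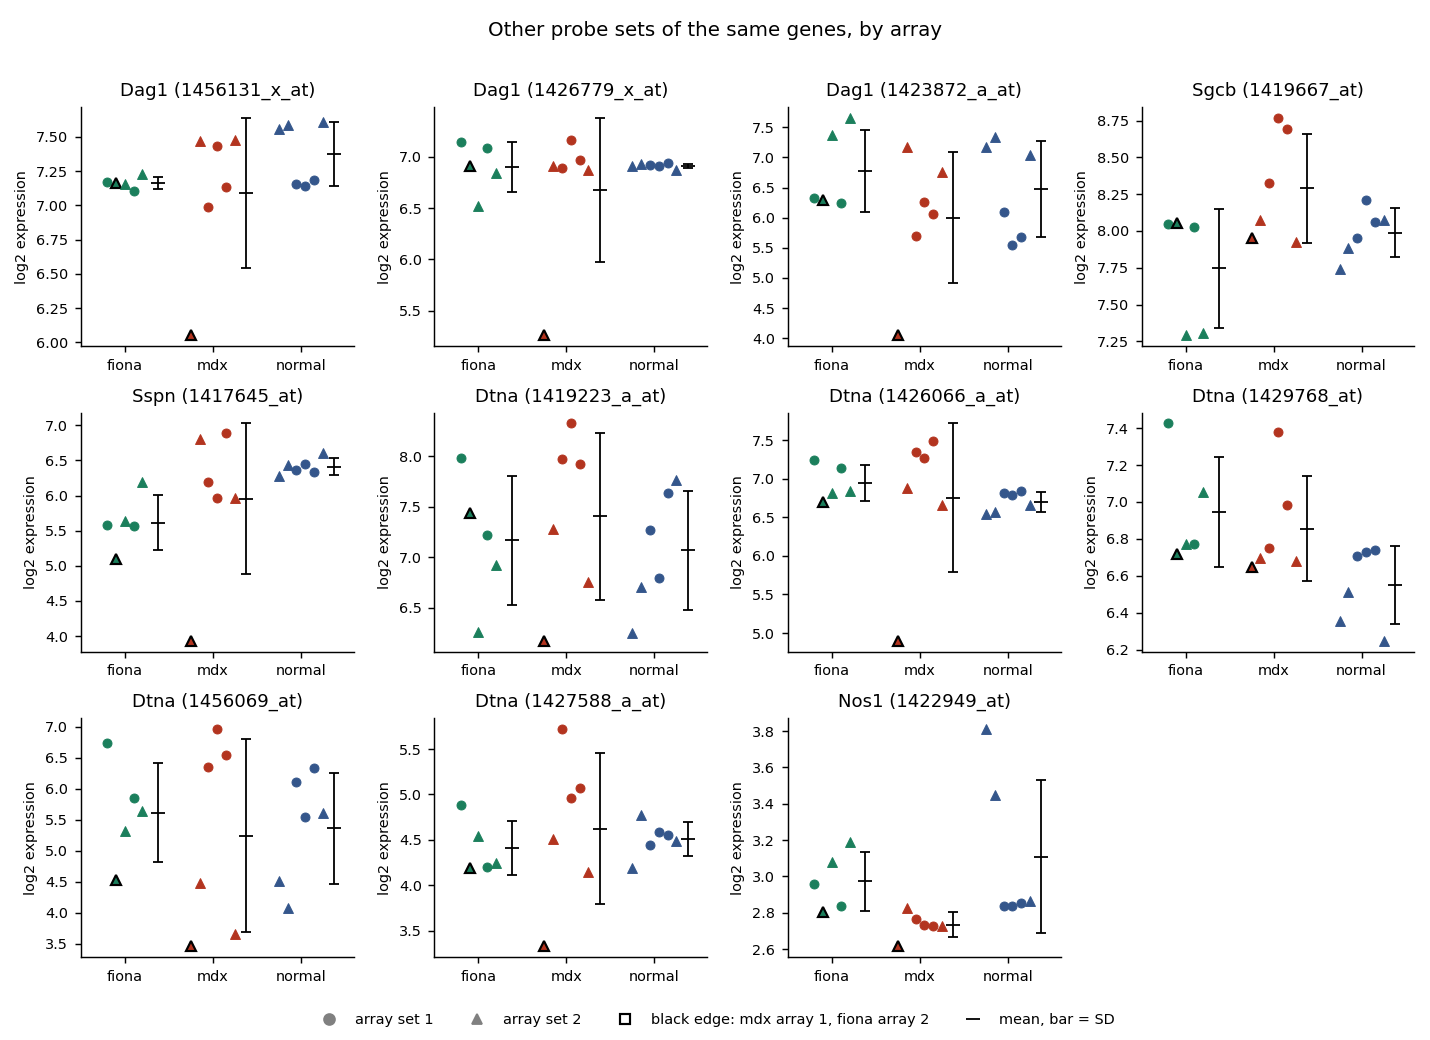
Deposited log2 values of the further probe sets of Dag1, Sgcb, Sspn, Dtna and Nos1 on every array, with symbols by array set and the group mean with a bar of 1 SD beside the points. The point of mdx array 1, edged in black, is the lowest mdx value on several panels, at 3.93 for Sspn 1417645_at against 5.96 to 6.88 on the other mdx arrays.

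Nos1 encodes neuronal nitric oxide synthase, which makes the nitric oxide that widens vessels of contracting muscle. On its brighter probe set, 1438483_at, the fiona arrays read 8.39, 5.84, 8.47, 8.04 and 8.60. The mdx arrays ran from 5.06 over a median of 5.74 to 6.81, and the normal arrays from 6.81 over a median of 7.71 to 8.94. Of the fiona arrays, 4 lay above every mdx array, and fiona array 2 lay among the mdx arrays.

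Nos1 rose in fiona relative to mdx muscle, with 7.87 ± 1.15 in fiona muscle (SD, n = 5) and 5.93 ± 0.68 in mdx muscle (n = 6). The difference was 1.94 (95% interval 0.81 to 3.07, adjusted p = 0.0135 in limma, two-sided exact permutation p = 0.00866). Without fiona array 2 it was 2.44 (adjusted p = 0.00211), and leaving out single arrays kept it called in 17 of 17 fits. In array set 1 the difference was 2.54, and in array set 2, which holds fiona array 2, it was 1.45, not called there alone (adjusted p = 0.267). On Utrn 1426892_at fiona array 2 was the lowest fiona array, at 2.68, against 3.02 to 7.02 on the others. On 1427569_a_at it read 3.04, where only fiona array 5, at 2.48, was lower and the remaining fiona arrays read 3.78 to 7.28. On 1452222_at, which did not separate fiona from mdx muscle, fiona array 2 read 6.63 and fiona array 5 read 5.21. Fiona array 5 had the highest Nos1 value of the fiona arrays. Whether the transgene level bears on these Nos1 values was not tested. The macrophage marker level of fiona array 2 was 8.28 and lay within the range of the other fiona arrays.

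Against normal muscle, with 7.79 ± 0.88 (SD, n = 6), the mdx level of Nos1 was lower by a difference of -1.86 (95% interval -2.94 to -0.78) that was not called, with an adjusted p of 0.0538 in limma and a two-sided exact permutation p of 0.00433. The mdx and normal arrays overlapped at 6.81. In all 6 pairs of same-numbered arrays mdx was lower, by differences of -1.05 to -3.87, although the labels do not state that the numbers mark pairs. All 6 pairs ran in 1 direction on 4 of the 19 probe sets, against 20.8% of all probe sets. Within each array set the groups did not overlap, with differences of -1.35 in set 1 and -2.37 in set 2. Such a gap was seen on 10 of the 19 probe sets in set 1, against 63.9% of all probe sets. In set 2 it was seen on 5 of the 19, against 18.0%. Of 30 alternative fits of this probe set 9 called it, with adjusted p from 0.00864 to 0.255. Those 9 include array set as a block (0.0298) and the fits without fiona array 2 (0.0145), mdx array 2 (0.0415) or normal array 3 (0.0456), while the fit without mdx array 1 gave 0.113. With the replicate block on the mdx and normal arrays alone it was 0.0506. The fiona minus normal difference was 0.08 (-1.05 to 1.21, adjusted p = 0.949), an interval that includes a difference of more than 1 in either direction.

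The dimmer Nos1 probe set, 1422949_at, read 2.62 to 3.81. Normal arrays 1 and 2 lay 1.08 and 0.64 above the control level of the same array, and the other 15 arrays lay between -0.10 and 0.23 of it. It averaged 2.97 ± 0.16 in fiona, 2.73 ± 0.07 in mdx and 3.11 ± 0.42 in normal muscle. The mdx arrays lay below every normal array, and the difference of -0.38 was not called (adjusted p = 0.215). With 1418413_at of Cav3, it was 1 of 2 probe sets of the 19 whose mdx and normal arrays did not overlap, against 4.49% of all probe sets. Genes whose values most resembled those of Nos1 over the 17 arrays, among 5935 with enough range, were Kcna7, a potassium channel gene (r = 0.87), Pptc7, a mitochondrial phosphatase gene (r = 0.87), and Abcb4, a phospholipid transporter gene (r = 0.85). The arrays fall into 3 groups, and these correlations include the differences between them.

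Cav3 encodes the caveolin of muscle fibres, and its only probe set, 1418413_at, read 7.97, 8.47, 7.95, 7.84 and 7.96 on the fiona arrays. The mdx arrays ran from 8.50 over a median of 9.01 to 9.57, and the normal arrays from 7.67 over a median of 7.92 to 7.97. Every mdx array lay above every fiona array and every normal array, although fiona array 2 came close to the lowest mdx array. Of all probe sets, 35.0% had fiona and mdx arrays that did not overlap.

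Cav3 rose in mdx muscle, with 9.00 ± 0.38 in mdx muscle and 7.88 ± 0.11 in normal muscle (SD, n = 6 each). The difference was 1.11 (95% interval 0.79 to 1.44, adjusted p = 0.000474 in limma, two-sided exact permutation p = 0.00216, the smallest for 6 arrays against 6). It was 1.09 in array set 1 and 1.13 in array set 2, where the adjusted p alone was 0.0777. The difference was called in 17 of 17 fits without single arrays.

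Cav3 fell in fiona relative to mdx muscle, with 8.04 ± 0.25 in fiona muscle (SD, n = 5) and 9.00 ± 0.38 in mdx muscle (n = 6). The difference was -0.96 (95% interval -1.30 to -0.62, adjusted p = 0.00290 in limma, two-sided exact permutation p = 0.00433). In array set 1 it was -1.02 and in array set 2 it was -0.94, where the adjusted p alone was 0.189. The fiona minus normal difference was 0.15 (-0.19 to 0.49, adjusted p = 0.565), and 0.05 without fiona array 2.

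**Figure D4:**
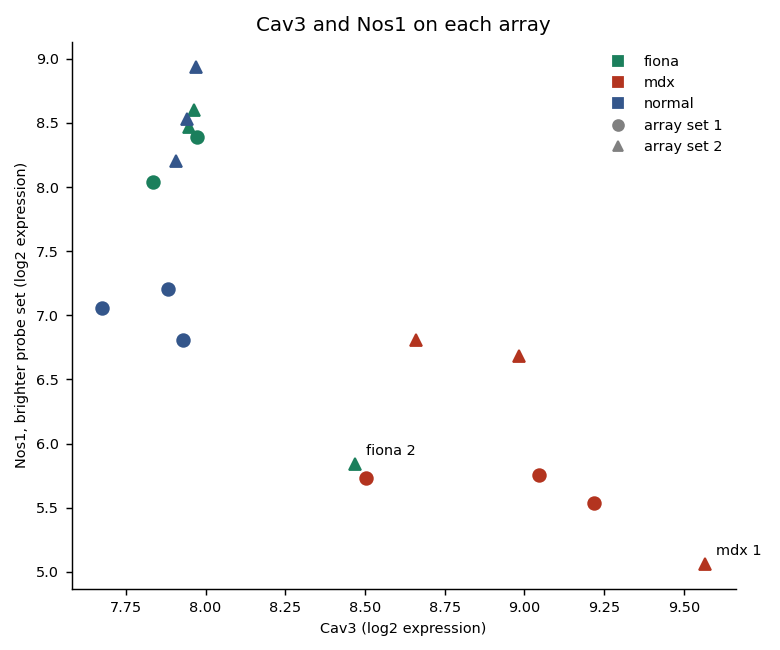
Deposited log2 values of Nos1 (1438483_at) against those of Cav3 (1418413_at) on each of the 17 arrays, by group and array set. The mdx arrays lie at high Cav3, from 8.50, and low Nos1, up to 6.81, and fiona array 2 lies nearest to them with 8.47 for Cav3 and 5.84 for Nos1.

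Regenerating-fibre and macrophage markers moved with the same groups as Cav3. Markers of regenerating fibres, such as the embryonic myosin gene Myh3, had a summed log2 level of 7.30 to 8.11 in fiona, 9.63 to 13.27 in mdx and 6.78 to 7.64 in normal muscle. Of these 6 genes, 5 were called higher in mdx than in normal muscle and 6 lower in fiona than in mdx muscle. Macrophage markers had 7.83 to 9.15 in fiona, 11.25 to 12.71 in mdx and 7.38 to 8.10 in normal muscle, with 7 of 8 called higher in mdx than in normal muscle and 8 of 8 lower in fiona than in mdx muscle. Fibroblast markers had 11.67 to 13.68 in fiona, 13.98 to 14.80 in mdx and 12.97 to 13.97 in normal muscle, with 2 of 6 called higher in mdx than in normal muscle and 5 of 6 lower in fiona than in mdx muscle. The part of these cells in the levels of Cav3 and Nos1 was not tested.

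The genes whose values most resembled those of Cav3 over the 17 arrays were Sln, which encodes sarcolipin, a regulator of the calcium pump (r = 0.97), Gamt, which encodes an enzyme of creatine synthesis (r = 0.96), and Limd2, which encodes a LIM domain protein (r = 0.95). As for Nos1, the groups contribute to these correlations. Endothelial and smooth muscle markers gave 0 calls in all 3 comparisons, as did 3 measured Schwann cell genes. Of 3 measured adipocyte genes only Lep was called, higher in fiona than in mdx muscle and at the control level on all arrays. The summed log2 level of the adipocyte markers was 4.03 to 5.75 in fiona, 4.50 to 6.62 in mdx and 6.25 to 8.59 in normal muscle. That of the Schwann cell markers was 8.44 to 10.39 in fiona, 8.57 to 10.09 in mdx and 9.61 to 10.20 in normal muscle.

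Other genes of the complex were counted from lists, each gene on its brightest probe set. The fiona against mdx counts stand beside the 40.9% of all genes called there. Of 8 measured among 11 further members, only Dmd was called lower in mdx than in normal muscle, and 3 were called higher in fiona than in mdx muscle: the syntrophin genes Sntg2 by 0.35, Sntb2 by 0.27 and Sntg1 by 0.09, the last at the control level throughout. Of 11 measured genes that glycosylate dystroglycan, 0 were called in any comparison, with a median difference of -0.03 for mdx minus normal and 0.05 for fiona minus mdx muscle. Over 9 measured dystroglycan ligands the median difference was 0.70 for mdx minus normal and -0.67 for fiona minus mdx muscle, against -0.04 and 0.08 over all genes. Among them Bgn, which encodes biglycan, rose by 1.85 in mdx relative to normal muscle (adjusted p = 0.0142 in limma). In fiona relative to mdx muscle Bgn fell by 1.39 (adjusted p = 0.0181), Lama2, the laminin alpha2 chain gene of muscle, fell by 1.11 (0.0124) and Lamc1, a laminin gamma chain gene, fell by 1.03 (0.0120), and Lama4 was also called lower.

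Among 8 caveolar genes other than the member Cav3, only Cavin4, the muscle cavin, was called. It averaged 10.18 ± 0.26 in mdx and 9.52 ± 0.16 in normal muscle, a difference of 0.66 (adjusted p = 0.00351), and 9.56 ± 0.18 in fiona against 10.18 ± 0.26 in mdx muscle, a difference of -0.62 (adjusted p = 0.00866). Among 8 measured genes of nitric oxide signalling, Dynll1, a dynein light chain that binds and inhibits neuronal nitric oxide synthase, rose by 1.41 in mdx relative to normal muscle (adjusted p = 0.000838) and fell by 1.11 in fiona relative to mdx muscle (0.00834). Nos2 was called higher in fiona than in mdx muscle by 0.05, at the control level on all arrays.

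Of 12 measured costamere and cytoskeletal anchor genes, Vcl, the vinculin gene, was called higher in mdx than in normal muscle by 0.70 (adjusted p = 0.00825) and fell by 0.64 in fiona relative to mdx muscle (0.0120). Ctnnal1, a catenin-like gene, was called higher in fiona than in mdx muscle by 0.37, as were the keratin genes Krt19, by 0.08, and Krt8, both at the control level. Of 11 measured cytoplasmic and channel partners, Myot, the myotilin gene, was lower in mdx than in normal muscle by a difference of -0.41 (adjusted p = 0.00907) and higher in fiona than in mdx muscle by 0.47 (0.00566). In the same comparison Abca1, a cholesterol transporter gene, fell by 2.26 and Grb2, an adaptor that binds beta-dystroglycan, fell by 0.60, and Kcnj2, Trpc1 and Trpc4 were called higher. In fiona relative to normal muscle 0 genes of these lists were called on their brightest probe sets. That includes Dmd, whose brightest probe set, 1448665_at, averaged 5.04 ± 1.05 in fiona and 8.34 ± 0.77 in normal muscle. Every fiona array lay below every normal array there, yet the adjusted p was 0.101 in limma. The lack of a call in fiona against normal muscle therefore does not show equal levels. In that comparison an unadjusted p under 0.05 was seen for 1 of the 19 member probe sets in limma, against 22.8% of all probe sets, and a two-sided exact permutation p under 0.05 for 3, against 18.4%.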

How the data were processed

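Values are deposited per probe set as log2 expression. Per the submitters' processing notes RMA and GCRMA were used. The sources used here give neither which of them made the values nor a genome build. Of 22690 probe sets, 64 controls were left out. Symbols came from the platform annotation: 20380 probe sets had 1 symbol, 691 several and 1555 none. Group means of all 17 arrays were fitted with limma 3.58.1 (lmFit, eBayes) in R 4.3.3, tested on simulated data, with Benjamini-Hochberg adjustment over 22626 probe sets. Python 3.11.15 and matplotlib 3.10.9 made tables and figures. The control level was the median of 15 unspiked bacterial probe sets. Array sets were the sign of the largest residual component (42.7% of residual variance).

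The 8 members and the lists were chosen with earlier results of these data known. The text names every member probe set, up to 3 called genes per list and comparison with the largest difference, Dmd, Utrn, and the 3 genes most like each member called on its brightest probe set. Other called list members, Lama4, Krt8, Kcnj2, Trpc1, Trpc4, Lep and Myh1, fall outside this rule and are named without values. Same-numbered mdx and normal arrays deviated together in all 6 pairs (correlation 0.11 to 0.60). Both arrays of every such pair lie in the same array set, and the sets come from the same residuals. This check therefore cannot tell pairing from array set, and the labels do not state pairs. The replicate block was used only as an alternative fit. Same-numbered arrays of fiona and mdx (-0.42 to 0.29) and of fiona and normal (-0.51 to 0.48) did not deviate together throughout. Alternatives were other scalings, filters, probe set rules and blocks, and single arrays left out. The raw images were not used here.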

Additional observations from a re-analysis of the deposited data

Results flagged for a closer look

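In each group the highest or lowest array was compared with the nearest other array relative to the group's range. Of 120 groups examined, 8 held an array far from the others, and chance gives about 1 in 20 groups. Among the 57 groups of the 19 member probe sets there were 7, of which 4 were on mdx array 1. That array read 6.05 for Dag1 1456131_x_at, against 6.99 to 7.48 on the other mdx arrays, and 5.26 for Dag1 1426779_x_at, against 6.87 to 7.17. It read 3.93 for Sspn 1417645_at, against 5.96 to 6.88, and 4.90 for Dtna 1426066_a_at, against 6.66 to 7.50. Fiona array 2 read 5.84 for Nos1 1438483_at, against 8.04 to 8.60 on the other fiona arrays, and 8.47 for Cav3 1418413_at, against 7.84 to 7.97. Normal array 4 read 7.67 for Cav3 1418413_at, against 7.88 to 7.97 on the other normal arrays. Outside the members, mdx array 2 read 6.73 for Abca1 1421840_at, against 7.96 to 8.62 on the other mdx arrays.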

How the results depend on the processing

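Of the 19 probe sets, mdx against normal muscle called 1. It called 2 with the dim filter, only the 2 groups compared, trend and robust eBayes, or array set as a block. With 1 probe set per gene or the mean of probe sets it called 2 of the 8 genes. It called 5 in array set 1 alone and 0 in set 2 alone, and 1 to 2 without single arrays. Fiona against mdx muscle called 3, 0 in set 2 alone, 4 in set 1 alone and 2 to 4 without single arrays. Fiona against normal muscle called 0 in every fit. With the replicate block the calls were 1, 2 and 0, and 1 with the block on mdx and normal arrays alone; the block ended the fiona against mdx call of Sgcb 1419667_at and changed no other member call. Chosen after seeing the data, array set as a block without mdx array 1 called 2, 4 and 0. The added mdx against normal call was Nos1 1438483_at, or Dtna 1426066_a_at in the last fit. With the mean of probe sets, the added call was Nos1 on the mean of its probe sets. Set 1 alone added Nos1 1438483_at, Dtna 1426066_a_at, Dtna 1425292_at and Sgcb 1419667_at. No difference changed direction where it was called. Over all probe sets, 913 calls of mdx against normal muscle became 1920 with the set block, 1811 with it and without mdx array 1, 6032 in set 1 and 381 in set 2, and 578 with 1 probe set per gene. The 9516 calls of fiona against mdx muscle became 2473 with median centring, 3363 with quantile normalization (72.2% higher, against 85.5%), 3841 with the dim filter, 4818 with 1 probe set per gene, 5090 with means per gene, 4529 with the replicate block and 122 in set 2. The 1 call of fiona against normal muscle became 2147 without fiona array 2, 2 with trend and robust eBayes or the replicate block, 10 with the set block, 65 with it and without mdx array 1, 60 in set 1, 15 in set 2 and 0 with 1 probe set per gene. Values near the control level, those of Sgcd and most of Nos1 1422949_at, limit what can be read there.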

Other observations

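The relatives of the members given here were chosen after their values were seen, so their values are a description. None of them was called in any comparison, and Cavin4, which was called, is given above and is not among them. Sgce, the epsilon-sarcoglycan gene, averaged 5.78 ± 0.26 in fiona (SD, n = 5), 5.99 ± 0.26 in mdx (n = 6) and 5.93 ± 0.25 in normal muscle (n = 6). Cav1, the caveolin of endothelial and fat cells, averaged 10.60 ± 0.25 in fiona, 10.50 ± 0.23 in mdx and 10.44 ± 0.30 in normal muscle. Its mdx minus normal difference of 0.06 had a 95% interval of -0.25 to 0.37, where that of Cav3 was 1.11. Cav2 averaged 9.30 ± 0.24 in fiona, 8.94 ± 0.41 in mdx and 9.16 ± 0.18 in normal muscle. Cavin1, which forms the caveolar coat with the caveolins, averaged 8.67 ± 0.85 in fiona, 8.81 ± 0.59 in mdx and 8.65 ± 0.59 in normal muscle.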
